A study of Mus musculus with 30 samples.

Results

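The effect of dexamethasone common to 3 preparations of the mouse nucleus accumbens was measured by setting all 15 arrays of dexamethasone-treated mice against all 15 arrays of saline-treated mice, which together are all 30 arrays of the series. The groups were astrocytes, neurons and nucleus accumbens tissue of C57BL/6J mice 4 h after an injection of dexamethasone at 4 mg/kg, and the same 3 preparations 4 h after saline, with 5 Illumina bead arrays in each of the 6 groups. Magnetic sorting had yielded the astrocytes and neurons, and an array carried RNA of a single mouse. Whether the 3 preparations of a replicate number came from the same mice is not given in the labels. The response of a gene is the log2 difference, dexamethasone minus saline, within a preparation. Its mean response is the mean of the 3 differences, each preparation having the same weight, and it was fitted with limma for 13226 genes. A chip held 1 array of every group at a place that was fixed by group, so place and agent cannot be told apart.

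Dexamethasone is a synthetic glucocorticoid. It crosses into cells and binds the glucocorticoid receptor, a transcription factor that then moves to the nucleus, binds palindromic response elements in DNA and raises or lowers the transcription of nearby genes. Fkbp5, a co-chaperone that lowers the receptor's affinity for hormone, Tsc22d3, a leucine zipper protein of the anti-inflammatory response, and Sgk1, a kinase of ion transport, are widely used readouts of receptor activity. In the brain, astrocytes and endothelial cells carry the receptor as well as neurons.

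The preparations matched their labels for markers of astrocytes and of medium spiny neurons. A list of 16 general neuron markers averaged 12.34 in saline neurons, 12.64 in saline tissue and 9.89 in saline astrocytes. Sorted neurons thus did not exceed tissue on that list. Medium spiny neuron markers averaged 12.86 in saline neurons and 11.93 in saline tissue. Markers of other cell types were present in both sorted preparations. Saline neurons exceeded saline tissue for 8 markers of dividing cells (mean level 9.52 against 6.53). They also did so for 6 blood markers (10.04 against 8.75) and 13 endothelial markers (10.4 against 9.5). Saline neurons lay below saline tissue for the remaining marker lists of non-neuronal cells, among them astrocytes, oligodendrocytes and microglia. The part of dividing and blood cells in the neuron responses was not tested. Such other markers were also seen in the astrocyte preparation. Its saline mean levels were 12.9 for oligodendrocyte and 9.4 for microglia markers, against 13.3 and 9.9 in saline tissue. They were 10.5 for endothelial and 9.0 for mural markers, against 9.5 and 7.9 in saline tissue. The mean log2 level of 21 astrocyte markers per array lay between 13.41 and 13.63 in dexamethasone astrocytes and between 13.36 and 13.67 in saline astrocytes, but between 7.82 and 8.57 in dexamethasone neurons and between 8.52 and 9.71 in saline neurons. Within neurons this list moved with treatment, its median response being -1.03. For 13 markers of medium spiny neurons, the projection neurons of this region, the group means were 12.88 in dexamethasone neurons and 12.86 in saline neurons, and 8.91 in dexamethasone astrocytes and 9.01 in saline astrocytes. Between 35.2% and 48.6% of probes were detected per array. In tissue, fewer cells of a type and less RNA per cell cannot be told apart.

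A pair of arrays stood apart from their groups. The tissue array labelled dexamethasone replicate 5 had the highest share of detected probes, 48.6%, and the lowest weight of all arrays, 0.104, where limma estimated array weights. The neuron array labelled saline replicate 2 carried levels close to those of dexamethasone neurons at many of the genes described here. Over all genes its weight was 0.901, and its mean correlation with its group was 0.97, the next lowest being 0.974. It was the highest of the 5 saline neuron arrays for 55 of the 99 shared higher genes defined below and the lowest for 50 of the 76 shared lower genes. It exceeded the lowest dexamethasone neuron array at 83 of the 99, against 25 to 49 for the other saline neuron arrays. Both arrays were kept under their labels, and results that rest on them are given with and without them. The neuron array was singled out by its levels at the shared genes, so larger neuron responses there without it follow from that choice.

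Across the 13226 genes, 171 had a mean response above 0 and 113 below 0 at an adjusted p under 0.05 (limma, two-sided, Benjamini-Hochberg over all genes), 1.29% and 0.854% of the genes tested and 2.15% together. At an unadjusted p under 0.05 there were 1487 genes, 11.2%. With arrays scaled to equal medians instead of quantiles there were 66 higher and 87 lower genes, so that 43.1% of the calls were higher, against 60.2% above. Of the 171 higher genes 126 had a positive response in each of the 3 preparations (73.7%; 0.953% of all genes), and of the 113 lower genes 104 had a negative response in each (92%; 0.786% of all genes). Of all genes tested, 72% were measured in every preparation, meaning detection on at least 5 of its 10 arrays. With that demand there were 99 higher and 76 lower genes, 0.749% and 0.575% of all genes tested, and these 175 (1.32%) are called shared genes below. The 3 signs agreed at 30.4% of all genes with no test asked. Calling genes on the mean of the same 3 responses itself raises sign agreement, so 30.4% is not a baseline for the called genes. Without the neuron array labelled saline replicate 2 the counts were 199 higher and 170 lower genes, of which 122 and 114 were shared, and 171 of the 175 were kept. Without the tissue array labelled dexamethasone replicate 5 they were 220 higher and 151 lower, of which 130 and 96 were shared, and 165 of the 175 were kept. With the mean levels of astrocyte and neuron markers as covariates, 56 higher and 8 lower genes were called. Of these, 39 and 7 met the rule for shared genes in that fit, and 38 of the 175 were kept. With median scaling 73 of the 175 were kept, and without the chip of replicate 3 59 were.

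A stricter question is whether a gene responded in every preparation by its own test. No gene passed when the largest of its 3 p-values was adjusted over all genes (limma, adjusted p under 0.05, 0% of genes), and 31 genes, 0.234%, had an unadjusted largest p under 0.05. Of those 31, 19 were higher (0.144%) and 12 lower (0.0907%) after dexamethasone. Nor did any gene separate its 5 dexamethasone arrays from its 5 saline arrays in all 3 preparations (0% of genes in either direction). Without the neuron array labelled saline replicate 2, 5 higher genes, 0.0378%, separated in all 3: Insl6, Fkbp5, Net1, Angptl4 and Ddit4. The lower gene that did so, 0.00756% of genes, was Tmem51, named here after its values were seen. Because that array was chosen by its levels at the shared genes, separation without it is not independent support. Without the tissue array labelled dexamethasone replicate 5, Pkp2 and Sesn1 separated among higher genes (0.0151%) and Lhfpl2 among lower genes (0.00756%).

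The shared genes had 1 direction but unequal sizes of response. Among the 99 shared higher genes, 82 had their largest response in astrocytes and 63 their smallest in neurons, with median responses of 0.98 in astrocytes, 0.32 in neurons and 0.45 in tissue. In 21 of the 99 the smallest of the 3 responses was under 0.10, so that the label "all 3" rests on a sign near 0, whereas in 12 it was at least 0.50. The 76 shared lower genes were more even, with medians of -0.53 in astrocytes, -0.39 in neurons and -0.48 in tissue, and 41 of them had their largest response in astrocytes. Their mean responses ranged between -1.03 and -0.19, against 0.25 to 1.92 for the higher genes. Of the 175 shared genes, 17 (9.71%) had responses that differed between preparations at an adjusted p under 0.05 in the limma interaction F test, as did 109 of all genes tested (0.824%).

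**Figure D1:**
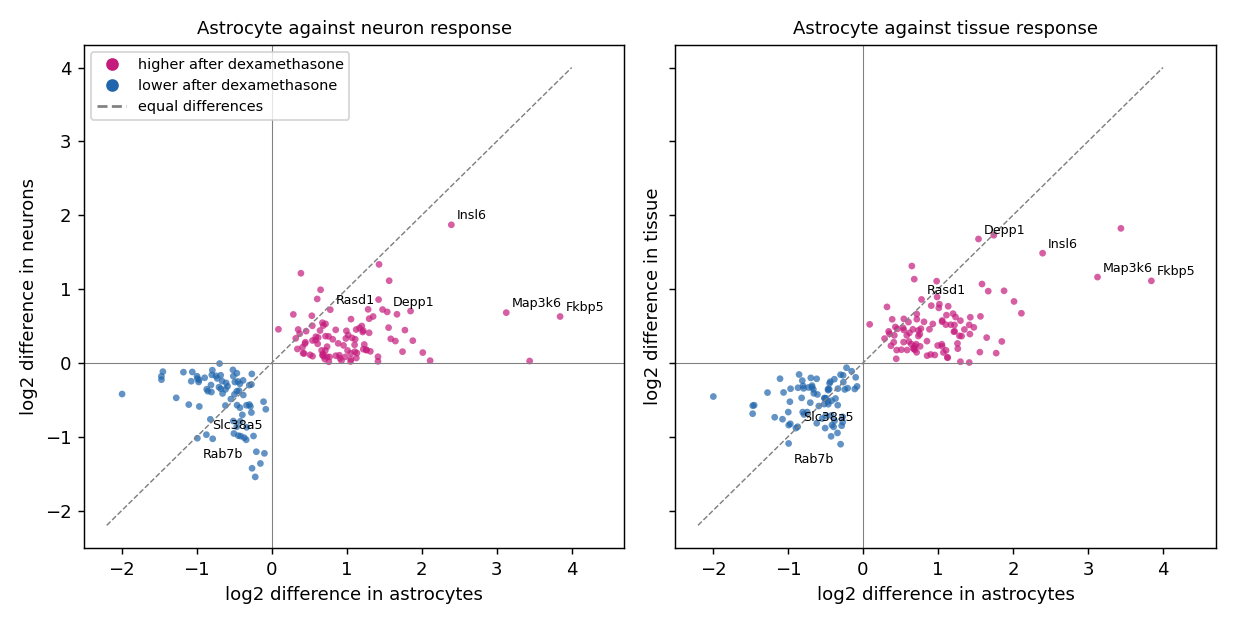
Log2 difference, dexamethasone minus saline, in neurons (left panel, vertical axis) and in tissue (right panel, vertical axis) against that in astrocytes (horizontal axis) for the 175 shared genes. Each point is 1 gene, the dashed line marks equal differences, and most higher genes lie below it: 82 of the 99 had their largest difference in astrocytes.

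The gene with the largest mean response among the shared genes was Insl6, a relaxin-family peptide hormone known mostly from the testis. In astrocytes its log2 levels in replicates 1 to 5 were 8.84, 8.70, 9.52, 8.37 and 8.14 after dexamethasone, against 5.78, 6.04, 6.17, 6.88 and 6.73 after saline. In neurons they were 9.70, 9.71, 9.74, 9.73 and 10.26 after dexamethasone, against 6.79, 9.97, 7.98, 7.11 and 7.95 after saline. In tissue they were 9.22, 9.54, 9.07, 9.54 and 8.93 after dexamethasone, against 7.70, 7.33, 7.63, 7.93 and 8.27 after saline. Every dexamethasone array lay above every saline array in astrocytes and in tissue, whereas in neurons the saline array of replicate 2 fell inside the dexamethasone range and the other 4 lay below it. Insl6 was detected on only 2 of the 5 saline astrocyte arrays, so its level there is near background. Its mean response was 1.92 ± 0.21 (SE of the limma fit, n = 15 arrays per agent, adjusted p = 1.28e-06), made up of 2.39 in astrocytes, 1.87 in neurons and 1.49 in tissue, and the interaction test gave an adjusted p of 0.971. Without the neuron array labelled saline replicate 2 the neuron response was 2.37 and the mean 2.08.

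Fkbp5, the co-chaperone of the receptor, had the smallest p of the shared genes. Its astrocyte levels were 12.53, 12.39, 12.44, 12.44 and 11.82 after dexamethasone, against 9.13, 8.71, 8.24, 8.50 and 7.83 after saline. Its neuron levels were 10.75, 10.46, 10.49, 10.82 and 10.40 after dexamethasone, against 9.70, 10.55, 10.12, 9.45 and 9.96 after saline. Its tissue levels were 11.10, 10.87, 10.94, 10.97 and 10.98 after dexamethasone, against 9.71, 9.77, 9.82, 9.93 and 10.07 after saline. Groups did not overlap in astrocytes and tissue, and in neurons 4 of the 5 saline arrays lay below all dexamethasone arrays, while replicate 2 lay within their range. The mean response was 1.86 ± 0.11 (adjusted p = 5.56e-12), but the parts were unequal, 3.85 in astrocytes, 0.63 in neurons and 1.11 in tissue, with an interaction adjusted p of 1.55e-08. Astrocytes had the highest mean of the dexamethasone groups and the lowest of the saline groups. The mean level was 12.33 ± 0.29 in dexamethasone astrocytes and 8.48 ± 0.49 in saline astrocytes (SD, n = 5 arrays each). It was 10.58 ± 0.19 in dexamethasone neurons and 9.96 ± 0.42 in saline neurons, and 10.97 ± 0.08 in dexamethasone tissue and 9.86 ± 0.14 in saline tissue.

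Map3k6, a stress-responsive kinase that stands upstream of the p38 and JNK kinases, followed the same order. Its astrocyte levels were 11.17, 11.02, 11.20, 11.39 and 10.52 after dexamethasone, against 8.25, 7.52, 7.98, 8.50 and 7.41 after saline. Its neuron levels were 8.68, 8.48, 8.82, 9.24 and 9.30 after dexamethasone, against 7.62, 8.73, 8.60, 7.86 and 8.31 after saline. Its tissue levels were 8.32, 8.97, 8.76, 9.93 and 8.46 after dexamethasone, against 7.72, 7.12, 8.01, 8.11 and 7.67 after saline. The 2 agents were far apart in astrocytes and apart by a narrow gap in tissue, while in neurons the saline arrays of replicates 2 and 3 lay within the dexamethasone range. The mean response of 1.66 ± 0.16 (adjusted p = 9.83e-08) combined 3.13 in astrocytes, 0.68 in neurons and 1.16 in tissue, and the interaction adjusted p was 0.00112. A further probe of the gene gave 1.64.

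The promoters of the shared genes were searched for the receptor's binding sequence, and those printed are the named genes that hold it, so that the bases behind the match can be seen. RefSeq promoters (GRCm38.p6, 250 bases before to 50 after the start) matched 74 of the 99 higher and 51 of the 76 lower genes. The response element, GNACA followed by 3 bases of any kind and TGTNC, was searched on both strands. It was found in 4 of the 74 higher genes (5.41%), in 1 of the 51 lower genes (1.96%) and in 38 of 9795 genes tested that have a promoter in the table (0.388%), or in 0.475% of all 32851 promoters. The 4 higher genes were Map3k6, Sgk1, Txnip and Kcna5 and the lower gene was Eml1, the last 2 named after their values were seen. The perfect form, AGAACA followed by 3 bases of any kind and TGTTCT, contains the element. It occurred in Sgk1 alone among the genes tested. The hexamer AGAACA, part of the perfect form, occurred in 14.9% of the higher, 13.7% of the lower and 15% of the tested genes. Capitals mark the element in the sequences, read 5′ to 3′ on the plus strand at chr4:133240568-133240867 for Map3k6, at chr10:21993640-21993939 for Sgk1 and at chr3:96557707-96558006 for Txnip.
Map3k6: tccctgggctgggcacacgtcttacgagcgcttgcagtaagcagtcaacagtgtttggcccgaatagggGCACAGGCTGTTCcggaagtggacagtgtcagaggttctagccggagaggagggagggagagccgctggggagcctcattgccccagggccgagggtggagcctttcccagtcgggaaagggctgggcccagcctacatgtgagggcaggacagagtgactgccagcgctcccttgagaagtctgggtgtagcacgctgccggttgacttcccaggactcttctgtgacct
Sgk1: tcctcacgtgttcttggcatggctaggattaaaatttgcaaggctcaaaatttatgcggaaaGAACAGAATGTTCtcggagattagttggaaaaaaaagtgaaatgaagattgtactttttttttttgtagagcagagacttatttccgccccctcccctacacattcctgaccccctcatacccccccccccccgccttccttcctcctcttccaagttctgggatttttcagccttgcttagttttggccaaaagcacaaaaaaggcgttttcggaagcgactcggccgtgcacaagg
Txnip: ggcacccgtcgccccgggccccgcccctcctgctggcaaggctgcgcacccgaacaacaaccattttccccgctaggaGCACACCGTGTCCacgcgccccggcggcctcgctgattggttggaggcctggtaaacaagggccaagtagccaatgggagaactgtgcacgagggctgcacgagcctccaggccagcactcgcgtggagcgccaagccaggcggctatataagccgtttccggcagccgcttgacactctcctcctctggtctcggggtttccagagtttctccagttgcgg
The element began 181 bases before the start in Map3k6, 188 in Sgk1 and 172 in Txnip. A match describes these letters only, and the arrays did not measure binding.

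Depp1, a target of FOXO transcription factors with a part in autophagy, was higher after dexamethasone in 15 of the 15 pairs of arrays that shared a chip and a preparation. In astrocytes its levels were 10.55, 9.75, 10.79, 10.51 and 9.67 after dexamethasone, against 8.61, 7.94, 8.98, 9.31 and 8.74 after saline. In neurons they were 8.56, 9.51, 8.57, 9.60 and 9.51 after dexamethasone, against 7.21, 9.45, 8.53, 8.10 and 9 after saline. In tissue they were 8.50, 8.18, 8.40, 9.35 and 8.28 after dexamethasone, against 6.61, 6.72, 7.25, 7.34 and 6.41 after saline. Astrocyte and tissue groups did not overlap, while neuron groups did, the saline arrays of replicates 2 and 5 lying inside the dexamethasone range. Its mean response was 1.30 ± 0.20 (adjusted p = 1.51e-04), with 1.54 in astrocytes, 0.69 in neurons and 1.68 in tissue and an interaction adjusted p of 0.87. For this gene and those below, the mean response averages the same 15 pair differences, so pair counts are not further support. A single direction in all 15 pairs was held by 7 of the 99 shared higher genes and 10 of the 76 shared lower genes.

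Rasd1, a Ras-like GTPase first found through its induction by dexamethasone, had responses of nearly equal size in the 3 preparations, 0.78 in astrocytes, 0.72 in neurons and 0.86 in tissue. Its astrocyte levels were 8.14, 7.19, 8.03, 7.80 and 6.75 after dexamethasone, against 7.46, 6.48, 7.01, 6.72 and 6.34 after saline. Its neuron levels were 7.42, 7.44, 8.34, 7.08 and 7.93 after dexamethasone, against 5.90, 8.56, 7.17, 6.57 and 6.41 after saline. Its tissue levels were 8.03, 7.98, 8.05, 8.49 and 7.05 after dexamethasone, against 6.98, 7.49, 6.89, 6.74 and 7.21 after saline. All 3 preparations had overlapping groups, and the highest neuron array of all was the saline array of replicate 2, at 8.56. The mean response was 0.79 ± 0.21 (adjusted p = 0.0397), higher in 13 of 15 pairs, and it lost its call in 19 of the 30 fits that left out 1 array. Without the neuron array labelled saline replicate 2 the mean response was 0.92 (adjusted p = 0.0019), with 1.13 in neurons. With the marker covariates the mean response was 0.30 and not called.

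**Figure D2:**
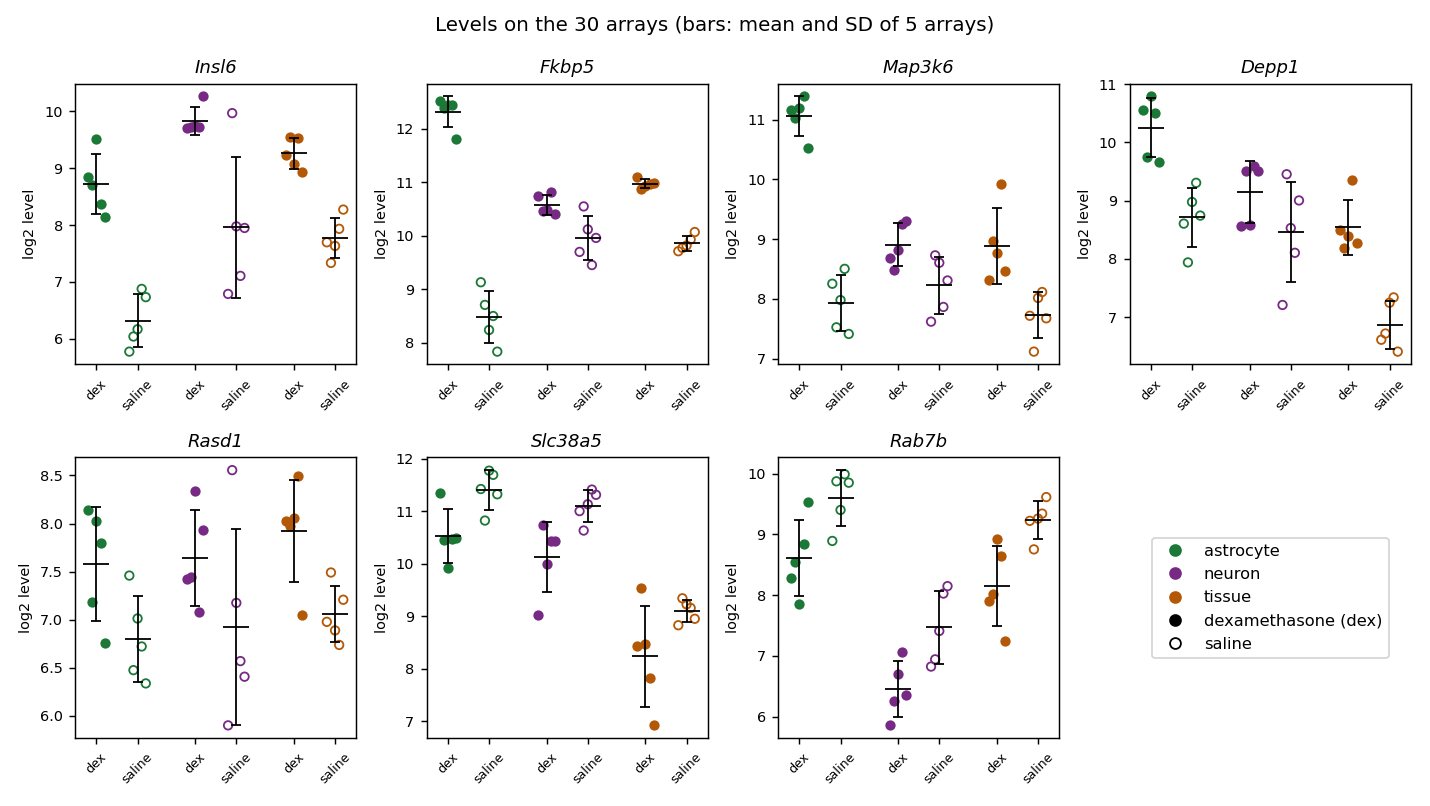
Log2 levels of 7 genes on the 30 arrays, 1 panel per gene, with astrocytes, neurons and tissue from left to right and dexamethasone left of saline in each preparation. Points are arrays and bars the mean and SD of 5 arrays. Insl6 and Fkbp5 are apart in astrocytes and tissue, and their saline neuron array of replicate 2 sits at dexamethasone levels.

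Among the lower genes, Rab7b, a small GTPase of transport between endosomes and the Golgi, had the largest mean response and was lower in 15 of 15 pairs. In astrocytes its levels were 8.28, 8.54, 7.85, 8.84 and 9.53 after dexamethasone, against 8.89, 9.87, 9.40, 9.99 and 9.85 after saline. In neurons they were 5.85, 6.26, 6.70, 7.07 and 6.36 after dexamethasone, against 6.82, 6.94, 7.41, 8.03 and 8.15 after saline. In tissue they were 7.90, 8.01, 8.93, 8.64 and 7.25 after dexamethasone, against 9.22, 8.75, 9.26, 9.34 and 9.61 after saline. The astrocyte groups overlapped through dexamethasone replicate 5, the neuron groups through dexamethasone replicate 4, and the tissue groups through dexamethasone replicate 3. On this probe its responses were near equal at -0.99 in astrocytes, -1.02 in neurons and -1.09 in tissue, with a mean of -1.03 ± 0.19 (adjusted p = 0.00131). A further probe of the gene gave unequal responses of -0.86 in astrocytes, -0.22 in neurons and -0.66 in tissue, with a mean of -0.58. Rab7b was detected on 1 of the 5 dexamethasone neuron arrays. With the marker covariates the mean was -0.90 and was not called.

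Slc38a5, an amino acid transporter of the cell surface, had similar responses when all arrays were used, -0.87 in astrocytes, -0.97 in neurons and -0.86 in tissue. Its astrocyte levels were 11.34, 10.45, 9.91, 10.47 and 10.48 after dexamethasone, against 11.42, 10.82, 11.77, 11.69 and 11.32 after saline. Its neuron levels were 9.02, 10.73, 10, 10.43 and 10.43 after dexamethasone, against 11, 10.63, 11.13, 11.41 and 11.31 after saline. Its tissue levels were 8.44, 9.54, 8.46, 7.81 and 6.92 after dexamethasone, against 8.83, 9.34, 9.23, 9.16 and 8.95 after saline. Each preparation had at least 1 dexamethasone array inside or above the saline range, and 13 of 15 pairs were lower. The mean response was -0.90 ± 0.20 (adjusted p = 0.00902). Between the chips it ranged between -1.25 and -0.02, with the value nearest 0 on the chip of replicate 2. It was -0.77 and not called with the marker covariates. Without the tissue array labelled dexamethasone replicate 5 the tissue response was -0.54 and the mean response -0.79 (limma, adjusted p = 0.00932).

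Lhfpl2, a membrane protein with 4 membrane-spanning segments, was lower in 15 of 15 pairs, with a mean response of -0.84 ± 0.14 (adjusted p = 4.75e-04) and parts of -0.79 in astrocytes, -1.03 in neurons and -0.70 in tissue. The arrays overlapped in tissue through dexamethasone replicate 5. Without that array the mean was -0.89 and the 2 agents did not overlap in any preparation. Tek, the angiopoietin receptor of endothelial cells, had a mean response of -0.78 ± 0.19 (adjusted p = 0.0172), with -0.50 in astrocytes, -0.96 in neurons and -0.88 in tissue. With the marker covariates neither gene was called, at -0.59 for Lhfpl2 and -0.63 for Tek.

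Of 13 endothelial markers tested, 1 rose (Slc2a1, the glucose transporter of the blood-brain barrier, 0.56 ± 0.13, adjusted p = 0.0118) and 1 fell (Tek), with a median response of -0.16, against 1.29% and 0.854% of all genes and a median of -0.02. The list's mean level ranged between 10.17 and 11.05 in dexamethasone astrocytes and between 9.95 and 10.96 in saline astrocytes. In neurons it ranged between 9.63 and 10.54 after dexamethasone and between 10.14 and 10.79 after saline, and in tissue between 9.02 and 9.65 after dexamethasone and between 9.41 and 9.66 after saline. Endothelial transcripts were thus present in all 3 preparations, and their part in the responses of Tek and the other lower genes was not tested.

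The rest of the 10 largest higher genes fell into those with a response of at least 0.60 in every preparation and those with little in neurons. Pkp2, a desmosome plaque protein, had a mean response of 1.13 ± 0.15 (adjusted p = 2.44e-05), with 1.43 in astrocytes, 1.33 in neurons and 0.62 in tissue. Its 2 further probes gave means of 0.87 and 0.49, with 0.60 and -0.10 in astrocytes. Nt5e, the cell-surface enzyme that makes adenosine, had 1.10 ± 0.17 (adjusted p = 1.80e-04), with 1.57, 1.11 and 0.63 in the same order. Net1, an exchange factor for RhoA, had 1.10 ± 0.17 (adjusted p = 1.80e-04), with 1.67, 0.66 and 0.97. Nt5e averaged 11.92 ± 0.17 in dexamethasone neurons and 10.81 ± 0.75 in saline neurons, and 10.22 ± 0.16 in dexamethasone astrocytes and 8.66 ± 0.55 in saline astrocytes (SD, n = 5 arrays each). Without the neuron array labelled saline replicate 2 the neuron responses were 1.58 for Pkp2 and 1.44 for Nt5e, and with the marker covariates Nt5e was not called (0.78). Angptl4, a secreted inhibitor of lipoprotein lipase, ran the other way, with its largest response in tissue. Its mean response was 0.98 ± 0.15 (adjusted p = 1.44e-04), with 0.65 in astrocytes, 0.99 in neurons and 1.31 in tissue.

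Cdkn1a, which encodes the cell-cycle inhibitor p21, met the rule of 1 direction by a response of 0.03 in neurons. Its mean response was 1.76 ± 0.14 (adjusted p = 3.94e-09), from 3.44 in astrocytes and 1.82 in tissue, and the interaction adjusted p was 2.06e-06. The cell-surface trafficking adaptor Arrdc2 had 1.74 in astrocytes, 0.15 in neurons and 1.73 in tissue (mean 1.21 ± 0.13, adjusted p = 1.28e-06, interaction adjusted p = 0.00862). Adamts9, a secreted metalloprotease of the extracellular matrix, had 1.88, 0.30 and 0.98 in the same order (mean 1.05 ± 0.12, adjusted p = 2.88e-06, interaction adjusted p = 0.0155). For these 3 genes the mean response describes astrocytes and tissue more than neurons.

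**Figure D3:**
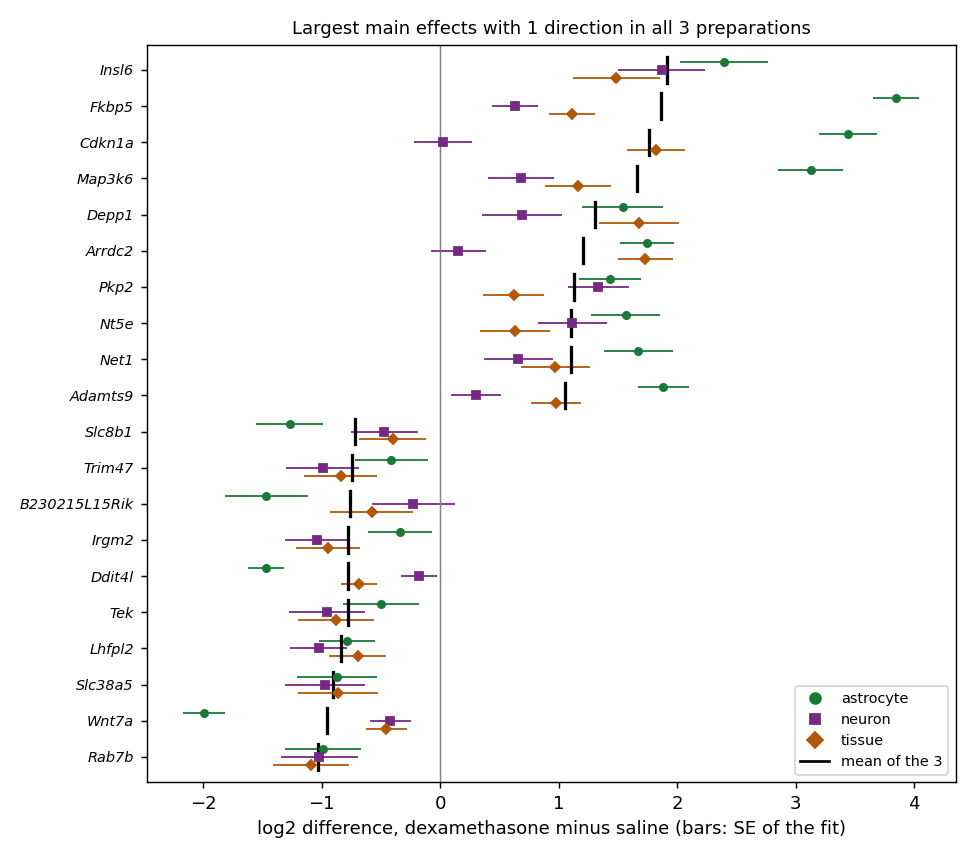
Log2 difference, dexamethasone minus saline, for the 10 higher and the 10 lower shared genes with the largest mean response. Symbols give astrocytes, neurons and tissue with the SE of the fit, and the short vertical line the mean of the 3. Fkbp5, Cdkn1a and Map3k6 reach 3.13 to 3.85 in astrocytes, whereas the 3 symbols of Rab7b lie between -1.09 and -0.99.

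Of the other 6 of the 10 largest lower genes, Wnt7a and Ddit4l had responses that differed between preparations in the interaction test, and Irgm2, Trim47, Slc8b1 and B230215L15Rik did not pass it. Wnt7a, a secreted ligand that acts on brain vessels and synapses, had -1.99 in astrocytes, -0.42 in neurons and -0.46 in tissue (mean -0.96 ± 0.10, adjusted p = 5.29e-07, interaction adjusted p = 2.43e-04). Ddit4l, a relative of Ddit4 that restrains mTOR, had -1.47, -0.18 and -0.69 in the same order (mean -0.78 ± 0.09, adjusted p = 1.59e-06, interaction adjusted p = 0.00404) and was lower in 15 of 15 pairs. Ddit4 itself, likewise a restraint on mTOR, moved oppositely in 15 of 15 pairs, with a mean response of 0.73 ± 0.10 (adjusted p = 4.46e-05). Irgm2, an interferon-induced GTPase, had a mean response of -0.78 ± 0.16 (adjusted p = 0.00432), with -0.34 in astrocytes, -1.04 in neurons and -0.95 in tissue. Trim47, a tripartite-motif protein, had -0.75 ± 0.18 (adjusted p = 0.0173) and was not detected on any dexamethasone neuron array, where it was at least 1.46-fold lower, the bound being the mean of the saline arrays over the lowest detected level. Slc8b1, the sodium-calcium exchanger of mitochondria, had -0.72 ± 0.16 (adjusted p = 0.0135), and B230215L15Rik had -0.76 ± 0.20 (adjusted p = 0.0398) and lost its call in 21 of the 30 fits without 1 array.

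Genes described in the literature as responding to glucocorticoids were followed as a list of 50. This and the other lists were chosen with earlier results of these data known, so their counts are description and not independent support. Of the 50 genes, 49 had a named probe on the array and 47 were tested. Nr3c1, the receptor's own gene, and Tiparp had probes that did not pass the detection filter. Of the 47 tested, 22 rose and 1 fell by the mean response, against 1.29% and 0.854% of all genes, and 17 of the 22 were shared genes. The median mean response of the list was 0.38, with 0.75 in astrocytes, 0.08 in neurons and 0.39 in tissue, against -0.02 for the mean response over all genes tested. Wnt7a was the member that fell.

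The receptor readouts Sgk1 and Tsc22d3 had responses that differed between preparations. Sgk1 averaged 13.93 ± 0.14 in dexamethasone astrocytes and 11.91 ± 0.34 in saline astrocytes, 12.59 ± 0.11 in dexamethasone neurons and 12.45 ± 0.21 in saline neurons, and 13.88 ± 0.44 in dexamethasone tissue and 13.05 ± 0.32 in saline tissue (SD, n = 5 arrays each). Its mean response was 1.00 ± 0.11 (adjusted p = 6.14e-07, interaction adjusted p = 2.43e-04). Tsc22d3 rose by the mean response (0.53 ± 0.10, adjusted p = 0.00187) but is not among the shared genes, its neuron response being -0.08 beside 1.05 in astrocytes and 0.61 in tissue (interaction adjusted p = 0.0331). Zbtb16, a zinc-finger transcription factor, had 1.42 in astrocytes, 0.86 in neurons and 0.39 in tissue (mean 0.89 ± 0.14, adjusted p = 4.18e-04). Dusp1, a phosphatase that shuts off MAP kinases, and Per1, a clock gene, are classical targets that did not pass the test here, with mean responses of -0.07 ± 0.13 (adjusted p = 0.909) and 0.08 ± 0.17 (adjusted p = 0.927). These means combined parts of opposite sign, none of them called. Dusp1 had 0.26 in astrocytes, -0.37 in neurons and -0.10 in tissue. Per1 had 0.75, -0.25 and -0.26 in the same order, and 0.77, -0.23 and -0.31 on a further probe. Mt1, a metallothionein and likewise a classical target, lay at the top of the arrays' range, whose highest level was 16.06, so that a rise could not be read in astrocytes (16.04 after dexamethasone and 16.05 after saline) or tissue (15.95 and 15.91). In neurons it was below that range and fell by 0.48 (limma, adjusted p = 0.0176).

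Further called members of the list had mean responses below that of Sgk1. Sesn1, a stress-induced inhibitor of mTOR signalling, had 0.76 in astrocytes, 0.36 in neurons and 0.39 in tissue (mean 0.50 ± 0.07, adjusted p = 1.27e-04) and was among the genes with an unadjusted p under 0.05 in every preparation. Nfkbia, the inhibitor of NF-kappaB, had 0.98, 0.08 and 1.11 in the same order. Errfi1, an inhibitor of the EGF receptor, had 1.31, 0.16 and 0.36. Sult1a1, a sulfotransferase, had a mean response of 0.70 ± 0.12, Cebpb, a transcription factor, 0.44 ± 0.11, and Rhob, a small GTPase, 0.35 ± 0.09. Zfp189, a zinc-finger protein, was not detected on any saline astrocyte array and was at least 1.4-fold higher in dexamethasone astrocytes (mean response 0.79 ± 0.16, adjusted p = 0.00361). Hif3a, a hypoxia-inducible factor subunit, had 1.16 in astrocytes (mean response 0.67 ± 0.14, adjusted p = 0.00447) and was not detected on any saline array of neurons or tissue. A further probe of Hif3a gave 0.43 in astrocytes and a mean of 0.24. Spsb1, a SOCS-box protein, had 1.24 in astrocytes, -0.02 in neurons and 0.25 in tissue.

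**Figure D4:**
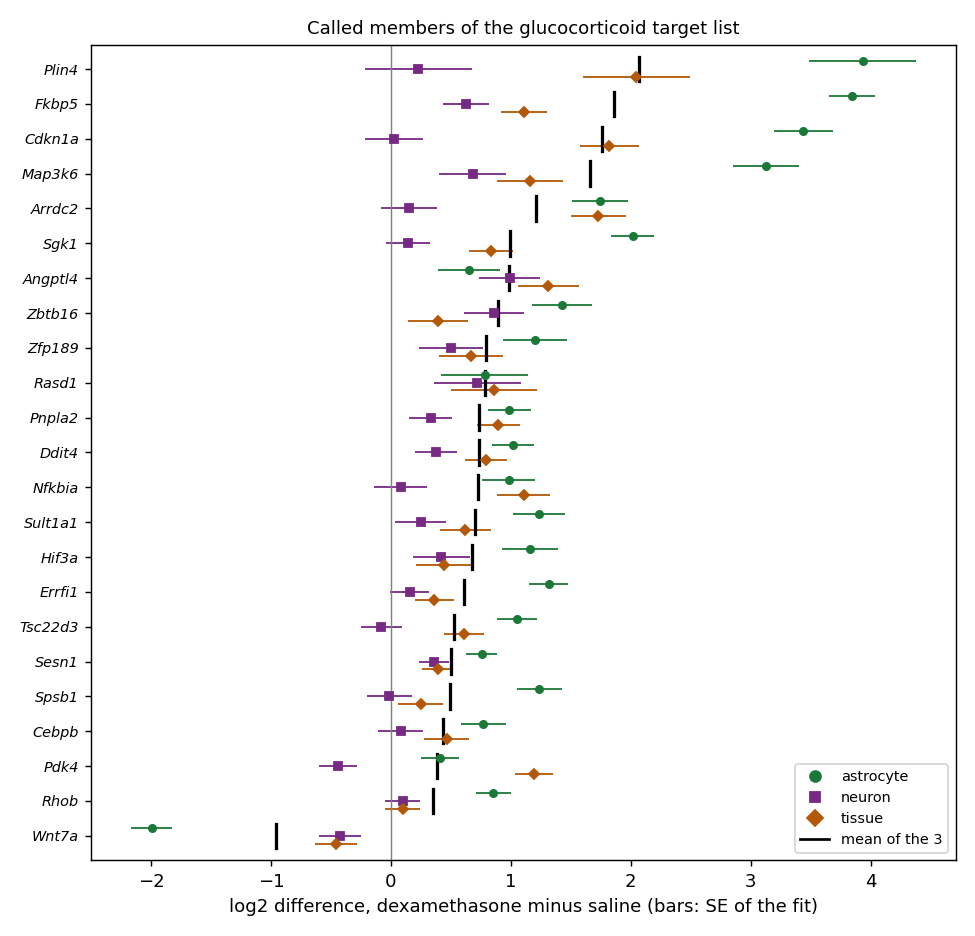
Log2 difference, dexamethasone minus saline, for the 23 called members of the glucocorticoid list. Symbols give astrocytes, neurons and tissue with the SE of the fit, and the short vertical line the mean of the 3. Astrocyte symbols reach 3.93 for Plin4, and neuron symbols of Cdkn1a, Sgk1 and Tsc22d3 lie between -0.08 and 0.14.

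A list drawn up for growth restraint, which also holds the insulin receptor adaptor Irs2, overlaps the glucocorticoid list. Of its 22 genes tested, 7 rose and 0 fell (limma), against 1.29% and 0.854% of all genes. The list's median was 0.26, against -0.02 over all genes. At an unadjusted p under 0.05 there were 11 higher and 0 lower, against 11.2% of all genes in either direction. Trp53inp1, a p53-induced protein of autophagy, had 1.59 in astrocytes, 0.33 in neurons and 1.07 in tissue (mean 0.99 ± 0.13, adjusted p = 2.43e-05). Irs2, which is not itself a restraint on growth, had 1.35, 0.63 and 0.45 in the same order (mean 0.81 ± 0.11, adjusted p = 2.86e-05). The other 5 were Cdkn1a, Ddit4, Sesn1, Gadd45g and Txnip, and all but Gadd45g had 1 direction in the 3 preparations. Txnip, an alpha-arrestin that restrains glucose uptake, had 1.14 in astrocytes, 0.13 in neurons and 0.77 in tissue (mean 0.68 ± 0.12, adjusted p = 8.80e-04). With Arrdc2 it was 1 of the 2 called among 5 alpha-arrestins, whose median was 0.21, against 2.15% of all genes called.

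Of 17 genes of lipid storage and use, 5 rose and 0 fell (limma), against 1.29% and 0.854% of all genes, with a median of 0.14. At an unadjusted p under 0.05 there were 5 higher and 3 lower, against 11.2% of all genes in either direction. Of the 5 called, 2 were shared genes, Angptl4 and Pnpla2. Pnpla2, the main triglyceride lipase of fat droplets, had 0.99 in astrocytes, 0.33 in neurons and 0.89 in tissue (mean 0.74 ± 0.10, adjusted p = 5.58e-05). Plin4, a coat protein of lipid droplets, had a mean response of 2.07 ± 0.26 (adjusted p = 8.58e-06) from 3.93 in astrocytes and 2.04 in tissue, and was not detected on any saline neuron array. Pdk4, a kinase that spares glucose by blocking pyruvate dehydrogenase, rose by the mean response (0.39 ± 0.09, adjusted p = 0.0162) with 1.19 in tissue and 0.41 in astrocytes, and was not detected on any dexamethasone neuron array. Plin5, another droplet coat protein, had a mean response of 1.02 and a neuron response of -0.04.

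Some called genes with large mean responses were not shared genes: Mthfd2 differed in sign between preparations, while Tcim, Camk1g and Xdh had 1 sign but were not measured in all 3. Mthfd2, a mitochondrial enzyme of folate metabolism, had 3.45 in astrocytes, -0.19 in neurons and 0.54 in tissue (mean 1.27 ± 0.11, adjusted p = 2.14e-08, interaction adjusted p = 3.19e-09). Tcim, a regulator of transcription, had 2.80 in astrocytes and was not detected on any neuron array (mean 1.23 ± 0.14, adjusted p = 1.52e-06). Camk1g, a calmodulin-dependent kinase, had 1.74 in neurons and 1.47 in tissue (mean 1.21 ± 0.24, adjusted p = 0.00364) and was detected on 1 dexamethasone astrocyte array and no saline astrocyte array. Xdh, xanthine dehydrogenase, had 1.92 in astrocytes, 1.20 in neurons and 0.54 in tissue (mean 1.22 ± 0.20, adjusted p = 4.75e-04), but tissue detected it on 3 of 5 dexamethasone arrays and 1 of 5 saline arrays.

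Genes of inflammation and of the interferon response were followed as a pair of lists. Of 18 inflammatory genes tested, 0 rose and 1 fell (limma), against 1.29% and 0.854% of all genes, with a median of -0.21. At an unadjusted p under 0.05, 1 was higher and 5 lower, against 11.2% of all genes in either direction. The called gene was Il1b, the cytokine interleukin-1 beta. Its mean response of -0.74 ± 0.13 (adjusted p = 0.0012) came from -1.73 in astrocytes, where it was detected on 2 of 5 dexamethasone arrays and 5 of 5 saline arrays. It was not detected on any neuron or tissue array. Of 19 interferon-induced genes tested, 0 rose and 1 fell, with a median of -0.22. At an unadjusted p under 0.05 (limma) 0 were higher and 7 lower, against the same 11.2%. Of the 19, 11 had 3 negative responses, against 18.3% of all genes. Gbp2, a guanylate-binding protein, was the member that fell, with -0.45 in astrocytes, -0.99 in neurons and -0.28 in tissue (mean -0.57 ± 0.13, adjusted p = 0.0116).

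Markers of single cell types were also among the calls. In the list of 21 astrocyte markers 0 were higher and 8 lower at an unadjusted p under 0.05 (limma). The share of all genes was 11.2% in either direction. By the adjusted p 0 were higher and 4 lower, against 1.29% and 0.854% of all genes, with a median of -0.30. The 4 were Slc7a10, Cldn10, Aqp4 and Slc1a3, and the size came from neurons: Slc7a10, an amino acid transporter, had -0.25 in astrocytes, -1.93 in neurons and 0.07 in tissue, and Cldn10, a claudin, had 0.00, -1.81 and -0.12 in the same order. A further probe of Aqp4 gave -0.21 in neurons and a mean of -0.10, beside -1.36 and -0.54 on the probe used. Cx3cr1, the fractalkine receptor of microglia, had -0.76 in astrocytes and -1.08 in tissue (mean -0.68 ± 0.13, adjusted p = 0.00255) and was not detected in neurons. It was the only call among 14 microglia markers tested, against 2.15% of all genes called. Their median mean response was 0.00 and their median in astrocytes 0.10. Aspa, an enzyme of oligodendrocytes, had -0.53 in astrocytes and -0.62 in tissue, and lost its call in 17 of the 30 fits without 1 array. It was the only call among 10 oligodendrocyte markers tested, against the same 2.15%. Their median responses were 0.07 in astrocytes and -0.12 in tissue. In neurons the median response was -1.03 for the astrocyte markers, -0.53 for the oligodendrocyte markers, -0.33 for the endothelial markers and -0.31 for the mural markers. The oligodendrocyte list had a mean level of 11.11 in dexamethasone neurons and 11.62 in saline neurons. Each lower neuron response above stands beside these differences, and their part in it was not tested beyond the counts with astrocyte and neuron marker covariates.

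How far 1 preparation carried the mean response was examined by fitting the other 2 and reading the direction in the arrays left out. From neurons and tissue alone, 18 genes were higher and 4 lower (limma, 0.136% and 0.0302% of genes). Of the 13 higher genes measured in astrocytes 10 were also higher there (76.9%, median response 1.21), and 3 of the 4 lower genes were lower, against 47.7% higher and a median of -0.01 over all genes measured in astrocytes. From astrocytes and neurons, 138 were higher and 65 lower (1.04% and 0.491%). In tissue 104 of 128 measured higher genes were higher (81.2%, median 0.28) and 49 of 59 lower genes lower (83.1%, median -0.35), against 41.9% and 58.1% of all genes. From astrocytes and tissue, 168 were higher and 77 lower (1.27% and 0.582%). In neurons 86 of 135 measured higher genes were higher (63.7%, median 0.08) and 40 of 52 lower genes lower (76.9%, median -0.19), against 48.4% and 51.6% of all genes. If the preparations share mice, the arrays left out are not independent animals.

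Over all 9526 genes measured in every preparation the responses were weakly related, as a description across genes that share arrays within a preparation. Pearson's r was 0.12 between astrocytes and neurons, 0.23 between astrocytes and tissue and 0.18 between neurons and tissue, and the signs agreed at 52.3%, 54.9% and 54.9% of genes. Within each preparation by itself, in the 30-array fit, 272 genes were higher and 96 lower in astrocytes (2.06% and 0.726%), 6 and 47 in neurons (0.0454% and 0.355%), and 10 and 2 in tissue (0.0756% and 0.0151%). Without the neuron array labelled saline replicate 2 the neuron counts were 27 higher and 80 lower, and without the tissue array labelled dexamethasone replicate 5 the tissue counts were 18 and 10. No neuron gene was called by limma with the spread estimated in each preparation, with the marker covariates, or without the chip of replicate 1 or that of replicate 3. With the replicate block 20 genes were called in tissue.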

How the data were processed

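The authors deposited log2 intensities of 46174 probes on 30 Illumina bead arrays, not normalized between arrays and without detection p, and a value table in which, as the deposited values show, those log2 intensities had been quantile-normalized and taken to log2 once more. The sources used here do not give scanner software or background step. Per the labels, the 6 arrays of a replicate number share 1 chip and each group has 1 fixed position on it, which cannot be told apart from the group. The chip therefore pairs the arrays. Deviations from group means on the same chip had mean correlations of 0.191 (astrocytes), 0.175 (neurons) and 0.0478 (tissue).

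Background was removed by limma's normexp, with 1552 olfactory, vomeronasal, trace amine and taste receptor probes as negative controls and an offset of 16, then quantile-normalized. A probe was detected where under 0.05 of the receptor probes reached its intensity. Of the probes, 35725 had 1 gene symbol, 0 several and 10449 none, and symbols were updated through RefSeq (GRCm38.p6): 28566 matched by Entrez ID, 2632 by accession, and 4527 kept the platform's symbol. Genes detected on at least 5 of 30 arrays were kept with their brightest probe, 13226 in all. Of 28 further probes of named genes, 26 had the same direction as the probe used.

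Group means were fitted with limma 3.58.1 in R 4.3.3 (lmFit, eBayes, two-sided, Benjamini-Hochberg over all genes, called at an adjusted p under 0.05), and the code was tested on simulated data. P-values measure the spread between arrays of individual mice, and 5 arrays per group limit the precision. For a gene detected on no array of a group, "at least N-fold" compares the mean of the group that has it with a floor averaged over the arrays that lack it. The floor of an array is the lowest level detected on it, or the gene's level if that is higher.

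Named genes were the 10 higher and 10 lower shared genes with the largest mean response, the 10 shared genes whose smallest response was largest, called members of the glucocorticoid list with Dusp1, Per1, Pdk4, Mt1 and Nr3c1, up to 3 called members of each other list by smallest p, and the 5 largest called genes that were not shared. Gadd45g, Plin5 and Slc1a3 were named after their values were seen. The comparison, the gene lists and this rule were chosen with earlier results of these data known. Alternatives varied the background, scaling, filter, probe choice, block, weights, spread estimate, marker covariates, threshold and arrays.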

Additional observations from a re-analysis of the deposited data

Results flagged for a closer look

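A log2 level lay far from the other 4 arrays of its group, by Dixon's test with a critical ratio of 0.71, in 26 of the 348 groups of values looked at (58 named genes in 6 groups), where chance gives about 1 in 20. The 2 arrays described above as standing apart account for 6 of these. The tissue array of dexamethasone replicate 5 had Cdkn1a at 12.32 (nearest other array 11.17), Tek at 7.12 (8.28) and Cldn10 at 11.77 (12.50). The neuron array of saline replicate 2 had Nt5e at 12.11 (10.72), Wnt7a at 9.33 (10.04) and Camk1g at 10.42 (8.46).

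Among the other dexamethasone arrays, astrocyte replicate 5 was low for Fkbp5 at 11.82 (12.39) and for Cdkn1a at 11.74 (12.21). Astrocyte replicate 4 was high for Slc7a11 at 12.30 (11.94) and Cldn10 at 15.41 (15.13), replicate 1 for Sesn1 at 13.00 (12.79) and replicate 2 for Camk1g at 7.66 (6.05). Neuron replicate 5 was high for Insl6 at 10.26 (9.74) and Txnip at 11.03 (10.34) and low for Rhob at 12.54 (12.65). Tissue replicate 4 was high for Depp1 at 9.35 (8.50) and Txnip at 11.89 (11.31), and tissue replicate 2 low for Hif3a at 5.32 (6.41) and Plin4 at 9.42 (9.69). Among saline arrays, astrocyte replicate 1 was high for Lhfpl2 at 10.60 (10.09), Pnpla2 at 12.26 (11.82) and Spsb1 at 10.80 (10.15). Astrocyte replicate 3 was low for Cdkn1a at 7.91 (8.83), and astrocyte replicate 5 high for Camk1g at 6.70 (5.53). Tissue replicate 1 was high for Slc7a10 at 10.47 (10.21), and tissue replicate 5 for Sgk1 at 13.60 (13.01). The side of the group on which these 26 levels lay was mixed, and their causes were not tested.

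The 3 responses of 19 named genes differed in the interaction F test (limma, adjusted over all genes), so their mean responses combine unequal parts. Astrocytes had the largest response for 16 of them, with adjusted p-values of 3.19e-09 for Mthfd2, 1.55e-08 for Fkbp5, 2.06e-06 for Cdkn1a, 4.91e-05 for Tcim, 2.43e-04 for Sgk1 and Wnt7a, 0.00112 for Map3k6, 0.00404 for Ddit4l and 0.00498 for Plin4. They were 0.00862 for Arrdc2, 0.0103 for Errfi1, 0.0115 for Il1b, 0.0155 for Adamts9, 0.023 for Spsb1, 0.0331 for Tsc22d3 and 0.0494 for Ciart, a repressor of the clock. For Ciart 2 further probes gave 0.71 and 0.96 in tissue, where the probe tested gave 0.07. Pdk4 (2.43e-04) had its largest response in tissue, and the astrocyte markers Cldn10 (0.00867) and Slc7a10 (0.01) had theirs in neurons. Where a gene was hardly detected a response could not be read: Il1b was not detected on any neuron or tissue array nor Tcim on any neuron array, and Plin4 and Pdk4 were each detected on 1 of 10 neuron arrays.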

How the results depend on the processing

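The mean response gave 284 calls and 175 shared genes. Shared counts below are of genes that met the rule under the setting named, whether or not they are among the 175. Without background correction and with the authors' value table the counts were 31 genes in neurons, 20 in tissue and 2 lower members of the glucocorticoid list, and without the detection filter 6 in tissue. Median scaling, which moved the median over all genes to -0.10, gave 66 higher genes and made 43.1% of the calls higher, against 60.2% with quantile normalization. It gave 30 shared higher genes, 212 genes in astrocytes, 32 in neurons and 6 in tissue. The mean of a gene's probes gave 23 in tissue and 2 lower list members. With the replicate block there were 333 calls, 207 shared genes and 20 genes in tissue, and with the chip as a random block 23 in tissue. No other count moved by over 1.5 times under the block. Array weights gave 275 higher and 263 lower genes, 163 and 170 shared, 205 with different responses, 153 in neurons, 32 in tissue and 2 lower list members. A spread estimated per preparation gave 234 in astrocytes, 0 in neurons and 5 in tissue (limma). Marker covariates gave 56 higher and 8 lower genes, 39 and 7 shared, 37 with different responses and 0 in neurons (limma).

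Where 1 preparation was left out, shared means shared by the 2 that remained. Without the astrocyte arrays there were 18 higher and 4 lower genes, 11 and 1 shared, 1 with different responses, 13 in neurons, and 6 higher and 0 lower list members with a list median of 0.23. Without the neuron arrays there were 48 shared lower genes, 5 genes that passed in both astrocytes and tissue, 15 with different responses and a list median of 0.57. Without the tissue arrays there were 65 lower genes, 43 of them shared, and 25 in neurons. At an adjusted p under 0.01 there were 92 higher and 31 lower genes, 57 and 21 shared, 46 with different responses, 209 in astrocytes, 19 in neurons and 6 in tissue. At an adjusted p under 0.1 there were 211 lower genes, 138 shared lower genes, 24 in tissue and 2 lower list members. The list median was 0.23 within the chip of replicate 3 and 0.53 within that of replicate 4.

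Leaving out 1 array or 1 chip gave 82 to 220 higher and 22 to 170 lower genes, 50 to 130 and 12 to 114 shared, 0 to 0 passing in every preparation, 21 to 144 with different responses, 199 to 489 in astrocytes, 0 to 107 in neurons, 4 to 28 in tissue, 15 to 23 higher and 1 to 2 lower list members, and a list median of 0.34 to 0.46. The lowest counts of lower genes came without the chip of replicate 3, and the highest without the neuron array labelled saline replicate 2. Signs turned for Per1 (-0.25 without astrocyte arrays, -0.051 without replicate 5, -0.0023 without astrocyte saline replicate 5), Dusp1 (0.080) and Mt1 (0.0094) without neuron arrays, Pdk4 (-0.014) without tissue arrays, and Cldn10 (0.037) and Aqp4 (0.0070) within the chip of replicate 2. Within chips the uncalled Dusp1 (0.19 and 0.16 in replicates 1 and 2) and Per1 (-0.50 in replicate 3) also turned. Of the named genes' values, 162 of those without 1 array or chip and 123 under other settings were no longer called. The causes of these changes were not tested.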

Other observations

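Counts of calls by the mean response are given here for lists outside the report, beside 2.15% of all genes called. Counts at an unadjusted p under 0.05 (limma) stand beside 11.2% of all genes. A count of 0 in lists of this size is not read as a result. Of 17 immediate early genes, which mark recent neuronal activity, 0 were called (limma, 1 lower at an unadjusted p under 0.05), with a median of -0.07. Of 13 heat shock genes 0 were called (1 lower unadjusted, median -0.13), and of 14 genes of cholesterol synthesis 0 were called (0 unadjusted), although 7 of the 14 had 3 negative responses, against 18.3% of all genes. Of 16 clock genes only Ciart was called, with 1.13 in astrocytes, 0.07 in neurons and 0.07 in tissue. Its 2 further probes gave 1.26 and 0.71 in astrocytes, 0.06 and 0.14 in neurons, and 0.71 and 0.96 in tissue, and it lost its call in 13 of the 30 fits without 1 array. Slc7a11, a cystine transporter, was the lower gene called among 17 of the integrated stress response (-0.48 ± 0.13, adjusted p = 0.0487), yet 2 of its 3 further probes had the opposite direction and it lost its call in 24 of those 30 fits.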
